A study of Mus musculus with 48 samples.

Results

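The proximal part of mouse chromosome 7, from 3.66 to 54.02 Mb (build mm9), held 6936 of the 630424 open chromatin summits called in tumors of a mouse small cell lung cancer model. A summit is the base of highest signal within a called peak. The 6936 summits are all those of 3 deposited lists in this stretch, and they made up 1.10% of the lists. The stretch was chosen by measured values: it held no peak of the authors' merged list, and more summits of the CGRP pool than of the CMV pool, unlike the genome. The filter behind the merged list is not known, nor is it known whether the list analysed here is the whole of it, so the lack of merged peaks describes that list only. These properties are therefore given as a description, with no test. The CGRP pool had 2491 summits there (1.44% of its 172434), the CMV pool 2036 (0.810% of its 251512) and the mixed pool 2409 (1.17% of its 206478). None of them was in the merged list, and none was in either deposited table of comparisons, so the lists are the source of every value for these 50.36 Mb.

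Open chromatin was measured by ATAC-seq: a transposase, Tn5, cuts DNA that is not covered by nucleosomes and leaves sequencing adapters there. All 48 libraries carried the genotype Trp53-/-;Rb1-/-;p130-/-;R26mG. The CGRP pool joined 14 libraries from tumors started with Ad-CGRP-Cre, 7 lung tumors and 7 liver metastases, of which 1 was labelled Nfib-amplified. The CMV pool joined 19 libraries from tumors started with Ad-CMV-Cre, 9 lung tumors and 10 liver metastases, of which 8 were Nfib-amplified. The mixed pool joined 15 libraries: 4 Ad-CGRP-Cre lung tumors, and from Ad-CMV-Cre 7 lung tumors, 3 liver metastases and 1 lymph node metastasis, with 6 of the 15 Nfib-amplified. The CGRP and CMV pools differed in more than the vector. All 14 CGRP libraries came from preparation batch 2 and sequencing batch 2 and were labelled hypoaccessible. All 19 CMV libraries came from preparation batch 1, 8 of them were labelled hyperaccessible, and 15 were marked as left out for low ATAC-seq enrichment, although their labels name the CMV-pool list. This is a mark that none of the CGRP or mixed libraries had. Of the CMV libraries 15 came from sequencing batch 1 and 4 from batch 3, and 15 were titled as re-analyses, which no CGRP or mixed library was. The 15 mixed libraries came from preparation batch 3 and sequencing batch 3. With 1 list per pool, the vector, the batches and the enrichment of the libraries cannot be told apart. There is no replicate of a list, so no test was made, and every interval covers counting error only, not the spread between tumors.

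Small cell lung cancer is a neuroendocrine tumor of the lung that spreads early, often to the liver. Rb1 and p130 (the product of Rbl2) are pocket proteins that hold back E2F-driven entry into the cell cycle. The CMV promoter drives Cre in many cell types of the airway, whereas the promoter of CGRP, a neuropeptide, restricts Cre to neuroendocrine cells. Open chromatin marks promoters, enhancers and insulators, and promoters of genes used in most cells are open in nearly every tissue. Proximal mouse chromosome 7 is known for alternating gene-rich blocks and long clusters of related genes, among them zinc finger genes, the kallikrein genes of secreted proteases, pregnancy-specific glycoprotein genes, the Apoe lipoprotein gene cluster, the imprinted Peg3 domain and clusters of vomeronasal receptor genes, which are used in sensory neurons of the nose. In the RefSeq table at hand, chromosome 7 carries 126 of 230 Vmn1r and 52 of 123 Vmn2r vomeronasal receptor genes, 93 of 397 Zfp genes, 26 of 26 Klk genes and 13 of 13 Psg genes. That table is of build GRCm38, not mm9, so these counts are for the whole chromosome, and no gene was placed at a summit.

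The stretch was bounded by a merged peak on each side. In the authors' deposited table the last one before it, at chr7:3655381-3655881, had a mean normalised count of 101.6, and the first one after it, at chr7:54026047-54026547, had 6.53. Of the 4905 merged peaks of chromosome 7, 19 lay below the stretch, 0 within it, 63 between 54.02 and 71 Mb and 4823 beyond 71 Mb. The score of a summit is its −log10 q-value, and it ranks summits within a list only. In the CGRP pool the last summit before the stretch was at 3655984 (score 58.1) and the first inside it at 3677178 (11.3). At the far edge, the last CGRP-pool summit inside was at 54011540 (7.92) and the first after it at 54026228 (26.3). The CMV pool had its last summit before the stretch at 3655631 (101.3) and its first inside at 4034607 (5.27), then its last inside at 53974270 (1.44) and its next at 54026214 (11.1). For the mixed pool the same 4 summits lay at 3655566 (314.4), 3677184 (11.1), 54011553 (2.96) and 54026297 (8.38). The summits just outside scored higher than those just inside at both edges in all 3 lists. As the edges were set at merged peaks, the summits just outside lay at or near such a peak, and nothing is read from this order.

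Summits were sparser in the stretch than on the rest of the chromosome, and least sparse in the CGRP pool. The CGRP pool had 49.5 summits per Mb in the stretch (95% Poisson interval 47.5 to 51.4), against 81.7 (79.7 to 83.7) on chromosome 7 beyond 71 Mb, where it had 6658 summits. The CMV pool had 40.4 per Mb in the stretch (38.7 to 42.2), against 98.9 (96.7 to 101.1) beyond 71 Mb, where it had 8062. The mixed pool had 47.8 per Mb in the stretch (45.9 to 49.8), against 87.8 (85.8 to 89.9) beyond 71 Mb, where it had 7161. Density in the stretch was thus 0.606 of that beyond 71 Mb for the CGRP pool, 0.409 for the CMV pool and 0.545 for the mixed pool. Against the other autosomes, which had 69.8 summits per Mb in the CGRP pool, 103.1 in the CMV pool and 84.2 in the mixed pool, the stretch was also the sparser in each list. The piece between 54.02 and 71 Mb lay close to the stretch in density, with 43.4 summits per Mb in the CGRP pool, 42.0 in the CMV pool and 44.2 in the mixed pool.

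The balance of the pools varied along the chromosome. There were 1.22 CGRP-pool summits for each CMV-pool summit in the stretch, 455 more in all, against 0.826 beyond 71 Mb, 1404 fewer, and 0.676 on the other autosomes. Between 54.02 and 71 Mb the ratio was 1.03. The mixed pool followed the same order, with 1.18 mixed-pool summits for each CMV-pool summit in the stretch, 0.888 beyond 71 Mb and 0.816 on the other autosomes. The part of the vector in these ratios was not tested. In bins of 5 Mb the ratio of CGRP to CMV summits was highest from 0 to 5 Mb (1.43, summits below the stretch included) and from 25 to 30 Mb (1.37, 532 against 388 summits), and within the stretch it was below 1 only from 10 to 15 Mb (0.865). It stayed above 1 beyond the end of the stretch, at 1.14 from 55 to 60 Mb and 1.26 from 60 to 65 Mb. It was 0.678 from 65 to 70 Mb and 0.402 from 75 to 80 Mb (292 against 727), and 1.16 and 1.13 in the last 2 bins of the chromosome. The surplus was not confined to the stretch, and the edges of the stretch did not mark where it began or ended.

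Within the stretch the summits came in blocks. Of its 50 whole windows of 1 Mb, 19 with at least 200 summits over the 3 lists held 84.4% of the summits, 12 held between 1 and 30, and 7 held none in any list. The empty windows were 33 to 34 Mb and the 6 windows from 40 to 46 Mb. The longest gap ran from 39350905 to 46453225, 7.10 Mb with no summit of any pool, followed by 1.33 Mb from 32971042 to 34300152 and 0.978 Mb from 31993448 to 32971042. Whether reads could be placed in the longest gap was not tested. Without the empty windows, density in the stretch was 0.703 of that beyond 71 Mb for the CGRP pool, 0.475 for the CMV pool and 0.632 for the mixed pool. The fullest window, 52 to 53 Mb, had 163 summits of the CGRP pool, 131 of the CMV pool and 163 of the mixed pool. The next was 31 to 32 Mb with 153 CGRP, 117 CMV and 138 mixed summits. Next in order were 29 to 30 Mb with 150 CGRP, 96 CMV and 137 mixed summits, 53 to 54 Mb with 141, 102 and 139, and 25 to 26 Mb with 132, 102 and 126. At the other end, the window from 32 to 33 Mb had a single summit, of the CMV pool, and that from 21 to 22 Mb had 2, both of the CMV pool. Few summits were also found at 8 to 9 Mb (4 CGRP, 1 CMV and 1 mixed), 22 to 23 Mb (1, 5 and 1 in the same order of pools) and 23 to 24 Mb (4, 5 and 3). The 3 lists were full and empty in largely the same windows.

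**Figure D1:**
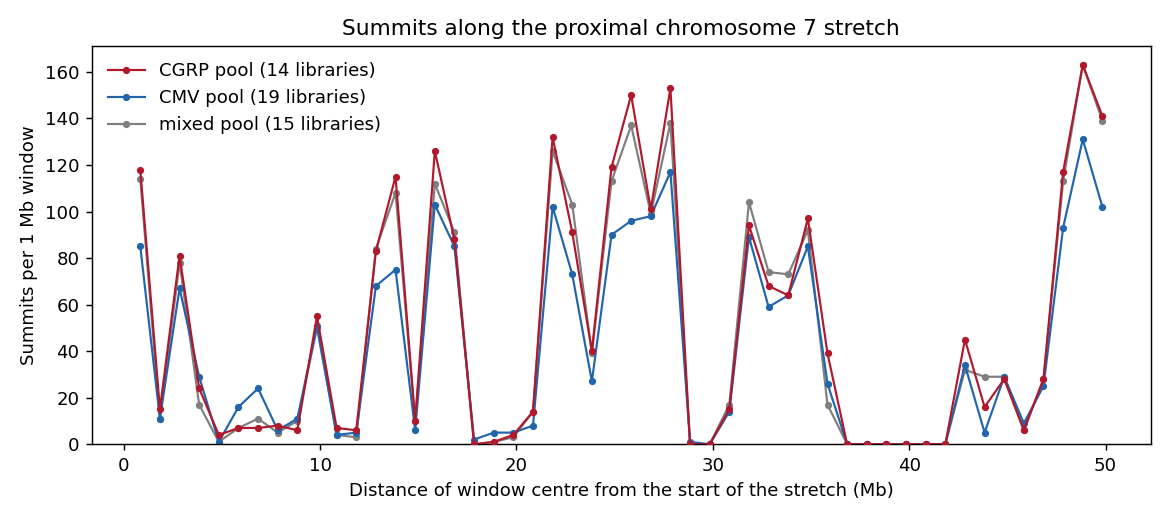
Summits per 1 Mb window (vertical axis) against the distance of the window's centre from the start of the stretch in Mb (horizontal axis), for the CGRP pool (red), the CMV pool (blue) and the mixed pool (grey). The 3 lists have their blocks in the same places, the CGRP line lies above the CMV line in the fullest windows (163 against 131 at the highest point), and no list has a summit in the 6 windows near the 40 Mb mark.

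The windows are described here by the counts that chose the stretch. Of 38 windows with at least 10 summits of the CGRP and CMV pools together, 31 had more CGRP-pool summits, 1 had equal numbers and 6 had fewer. That is 81.6%, against 39.2% beyond 71 Mb (31 of 79 windows) and 30.0% over all chromosomes (753 of 2512 windows). As this count is close to what chose the stretch, nothing is read from it. Of the windows without a merged peak over all chromosomes, 211 of 556 (37.9%) had more CGRP-pool summits. The 38 windows of the stretch are included in these 556, and in the 2512 above. The median ratio was 1.23 over the windows of the stretch and 0.759 over those of the genome. Among the 26 windows with at least 50 summits of both pools together, the ratio was highest from 29 to 30 Mb (1.56, 150 CGRP against 96 CMV summits), 17 to 18 Mb (1.53, 115 against 75) and 39 to 40 Mb (1.50, 39 against 26). Next came 27 to 28 Mb (1.48, 40 against 27) and 4 to 5 Mb (1.39, 118 against 85). The lowest ratios were 0.828 from 7 to 8 Mb (24 CGRP against 29 CMV summits), 0.966 from 48 to 49 Mb (28 against 29) and 1.00 from 37 to 38 Mb (64 against 64). They were followed by 1.03 at 30 to 31 Mb and 1.04 at 20 to 21 Mb (88 against 85). Windows side by side could thus stand near opposite ends of the order, as did 29 to 30 and 30 to 31 Mb. The widest deficits were in nearly empty ground: 7 CGRP-pool against 24 CMV-pool summits from 10 to 11 Mb, and 7 against 16 from 9 to 10 Mb.

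**Figure D2:**
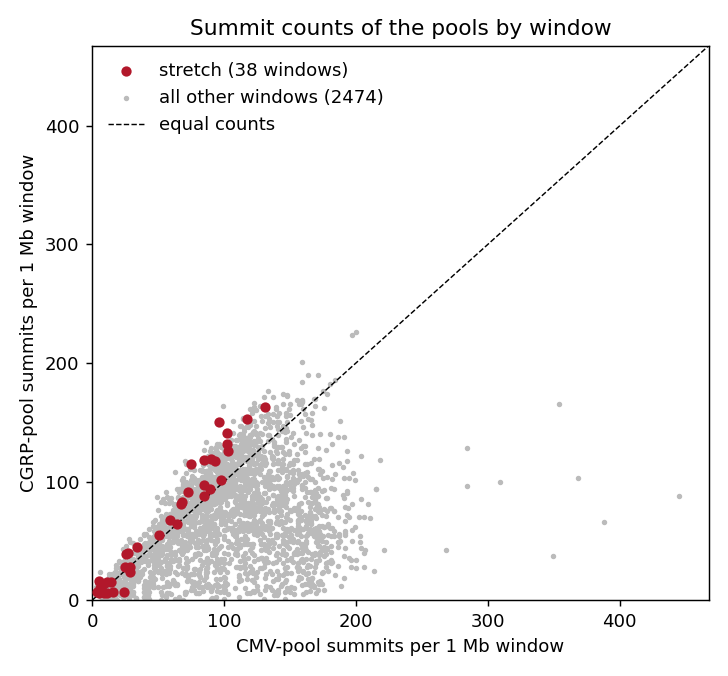
CGRP-pool summits (vertical axis) against CMV-pool summits (horizontal axis) per 1 Mb window with at least 10 of both, for the 38 windows of the stretch (red) and the other 2474 windows of the genome (grey); the dashed line marks equal counts. Of the red points 31 lie above the line, and most grey points lie below it, 30.0% of all windows being above.

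With the windows divided at 200 summits, a limit set after the counts were seen, the surplus was present on both sides. The surplus chose the stretch, so this division is a description only. The dense windows of the stretch had 2101 CGRP-pool, 1682 CMV-pool and 2061 mixed-pool summits, a CGRP to CMV ratio of 1.25. The rest of the stretch had 390, 354 and 348, a ratio of 1.10. Beyond 71 Mb the ratio was 0.830 in dense windows and 0.793 in the others, and on the other autosomes it was 0.706 and 0.494. The ratio was thus the higher in dense windows in each of these places, and the stretch was above both other places in dense and in sparse windows. On the scale of whole chromosomes, counting the 19 autosomes and X, chromosome 7 had the highest ratio (0.916) and the most protein-coding genes per Mb (13.97, from the RefSeq table in its own build). Chromosome 11 came next with 0.891 and 13.2, then chromosome 19 with 0.846 and 12.2. The counts of chromosome 7 include the stretch, which was chosen for its ratio, so nothing is read from the first rank. Beyond 71 Mb alone the ratio of chromosome 7 was 0.826, below those of chromosomes 11 and 19. Over the 20 chromosomes, the stretch included, Pearson's r was 0.909 and Spearman's rho 0.811. This is a description only, since all points share the same lists and so the same libraries and depth.

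Summits in the stretch scored higher than those of the rest of the chromosome, each list set against itself. The CGRP pool had a median score of 46.7 (quartiles 10.4 and 195.9) in the stretch, against 24.9 (7.92 and 102.8) beyond 71 Mb, a ratio of 1.87. The CMV pool had 15.05 (5.67 and 50.04) in the stretch, against 10.3 (4.46 and 34.8) beyond 71 Mb, a ratio of 1.47. The mixed pool had 32.1 (9.45 and 107.9) in the stretch, against 17.4 (6.38 and 60.3) beyond 71 Mb, a ratio of 1.85. Medians on the other autosomes were 24.2 in the CGRP pool, 8.68 in the CMV pool and 16.7 in the mixed pool, all below those of the stretch. Set on the scale of each list's own ranks, the median summit of the stretch stood at percentile 62.3 in the CGRP pool, 62.4 in the CMV pool and 64.0 in the mixed pool. Beyond 71 Mb the median summit stood at 50.4, 53.97 and 50.8 in the same order of pools. The stretch thus stood at nearly the same percentile in the 3 lists, and its distance from the rest of the chromosome was smallest in the CMV pool. The neighbouring piece from 54.02 to 71 Mb did not have it, with medians of 20.9 in the CGRP pool, 9.62 in the CMV pool and 14.9 in the mixed pool.

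The shift reached both ends of the score range. The highest 10% of each list took 15.9% of the CGRP-pool summits of the stretch (14.5 to 17.4, Wilson 95% interval), 15.9% of the CMV-pool summits (14.3 to 17.5) and 16.7% of the mixed-pool summits (15.3 to 18.2). Beyond 71 Mb it took 9.76% in the CGRP pool, 10.8% in the CMV pool and 9.44% in the mixed pool. The lowest 25% of each list took 18.8% of the CGRP-pool, 16.1% of the CMV-pool and 16.1% of the mixed-pool summits of the stretch, against 24.0%, 21.3% and 23.7% beyond 71 Mb. High scores went with full windows: in the dense windows the medians were 52.1 (CGRP), 17.03 (CMV) and 33.4 (mixed), against 19.9, 7.33 and 22.6 in the rest of the stretch. Dense windows beyond 71 Mb had medians of 25.6, 10.6 and 17.3 in the same order of pools, each below that of the dense windows of the stretch. In the other windows beyond 71 Mb the medians were 19.3 (CGRP), 7.99 (CMV) and 17.8 (mixed). Outside dense windows the stretch was thus close to the rest of the chromosome in the CGRP pool, lower in the CMV pool and higher in the mixed pool.

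**Figure D3:**
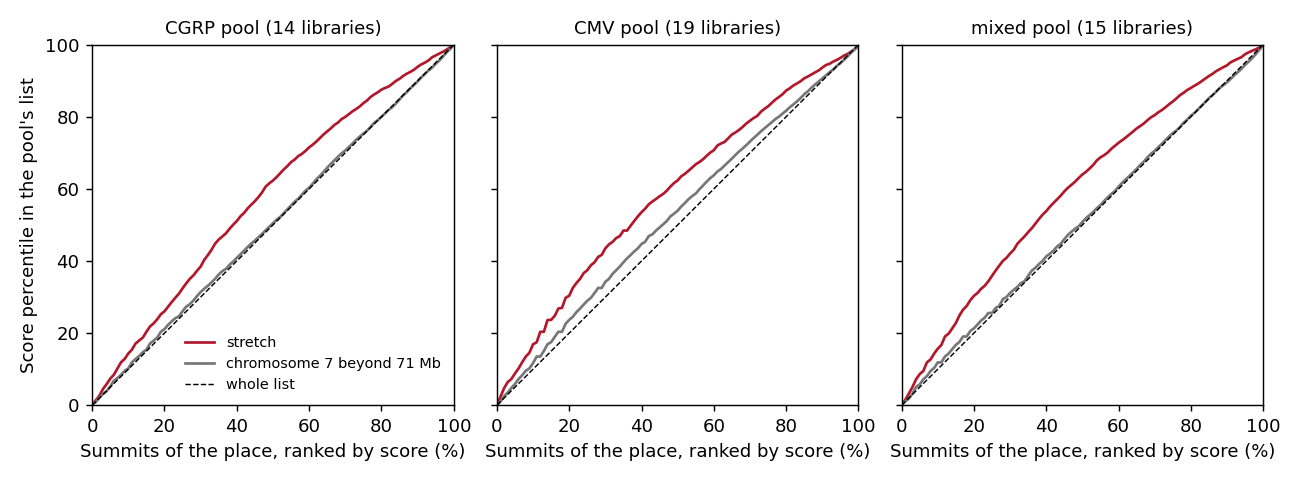
Percentile of the score in the pool's own list (vertical axis, %) against the rank of the summit by score within its place (horizontal axis, % of summits), for the stretch (red) and chromosome 7 beyond 71 Mb (grey), with 1 panel for each pool and a dashed line for the whole list. The red curves run above the grey ones through most of the range in all 3 pools and pass the middle of the horizontal axis at percentiles 62.3, 62.4 and 64.0.

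Most CMV-pool summits of the stretch were accompanied by a CGRP-pool summit, a larger share than on the rest of the chromosome. A summit was counted as shared with another pool when that pool had a summit at most 250 bp away. Of the 2036 CMV-pool summits in the stretch, 1680 (82.5%, Wilson 95% interval 80.8 to 84.1) had a CGRP-pool summit, against 4762 of 8062 (59.1%, 58.0 to 60.1) beyond 71 Mb and 49.3% on the other autosomes. Of the 2491 CGRP-pool summits in the stretch, 1652 (66.3%, 64.4 to 68.1) had a CMV-pool summit, against 4642 of 6658 (69.7%, 68.6 to 70.8) beyond 71 Mb. The difference between places was 23.4 percentage points (21.4 to 25.4) for CMV-pool summits and −3.40 points (−5.58 to −1.26) for CGRP-pool summits. The CGRP-pool difference rested on the setting: it was −0.841 points within 100 bp and −10.2 points as a mean over the 4 score classes of the list. These shares are tied to the counts that chose the stretch, since nearly the same number of shared summits is divided by an unequal number in each pool. Of the remainder, 839 CGRP-pool and 356 CMV-pool summits of the stretch had no partner in the other of these pools, against 2016 and 3300 beyond 71 Mb.

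The sharing of the mixed pool depended on the side it was read from. Near a mixed-pool summit were 81.8% of the CGRP-pool summits of the stretch (80.3 to 83.3), against 80.4% beyond 71 Mb, a difference within its counting error. Of the CMV-pool summits of the stretch 84.8% (83.2 to 86.3) were near a mixed-pool summit, against 70.5% beyond 71 Mb and 63.7% on the other autosomes. Read from the mixed pool, 85.3% of its summits in the stretch (83.8 to 86.7) were near a CGRP-pool summit, against 75.2% beyond 71 Mb, and 71.03% (69.2 to 72.8) were near a CMV-pool summit, against 77.8%. From the mixed pool's side, more of its summits were thus near the CGRP pool than near the CMV pool in the stretch, and the order was the opposite beyond 71 Mb. These 2 shares follow the CGRP-pool and CMV-pool counts that chose the stretch, and from the other side the share was the higher for the CMV pool in the stretch (84.8% against 81.8% for the CGRP pool). Of the 839 CGRP-pool summits of the stretch without a CMV-pool partner, 475 (56.6%, 53.2 to 59.9) had a mixed-pool partner, against 49.6% beyond 71 Mb. Of the 356 CMV-pool summits without a CGRP-pool partner, 140 (39.3%, 34.4 to 44.5) had one, against 36.9% beyond 71 Mb. Of those that the CGRP and CMV pools shared, 94.6% of the CGRP-pool summits of the stretch and 94.5% of the CMV-pool summits also had a mixed-pool summit.

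Sharing depended on the score, and the difference between places held within score classes. Unshared summits scored low: in the stretch, CGRP-pool summits without a CMV-pool partner had a median score of 8.88, against 112.1 for those with one, and CMV-pool summits without a CGRP-pool partner had 4.52, against 20.9. Each list was divided into 4 classes of about equal size by its own scores. From the lowest class to the highest, 51.8%, 72.3%, 88.5% and 98.0% of the CMV-pool summits of the stretch had a CGRP-pool summit (n = 328, 429, 564 and 715). Beyond 71 Mb these shares were 28.8%, 45.1%, 66.7% and 87.3%, and over the genome 19.5%, 35.4%, 60.8% and 83.9%. Every class was higher in the stretch. Of the CGRP-pool summits of the stretch, 25.2%, 40.9%, 74.3% and 96.3% had a CMV-pool summit (n = 468 in the lowest and 899 in the highest class), against 42.5%, 58.3%, 79.1% and 97.7% beyond 71 Mb. The deficit for the CGRP pool was widest in its lower classes, and the shares were closest in its highest class. The ratio of CGRP to CMV summits, with each list in its own classes, was 1.43, 1.17, 1.10 and 1.26 in the stretch and 0.932, 0.856, 0.797 and 0.746 beyond 71 Mb. It was above 1 in every class of the stretch and below 1 in every class beyond 71 Mb. These ratios divide the counts that chose the stretch and are a description only. The shares within score classes are tied to the same counts.

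**Figure D4:**
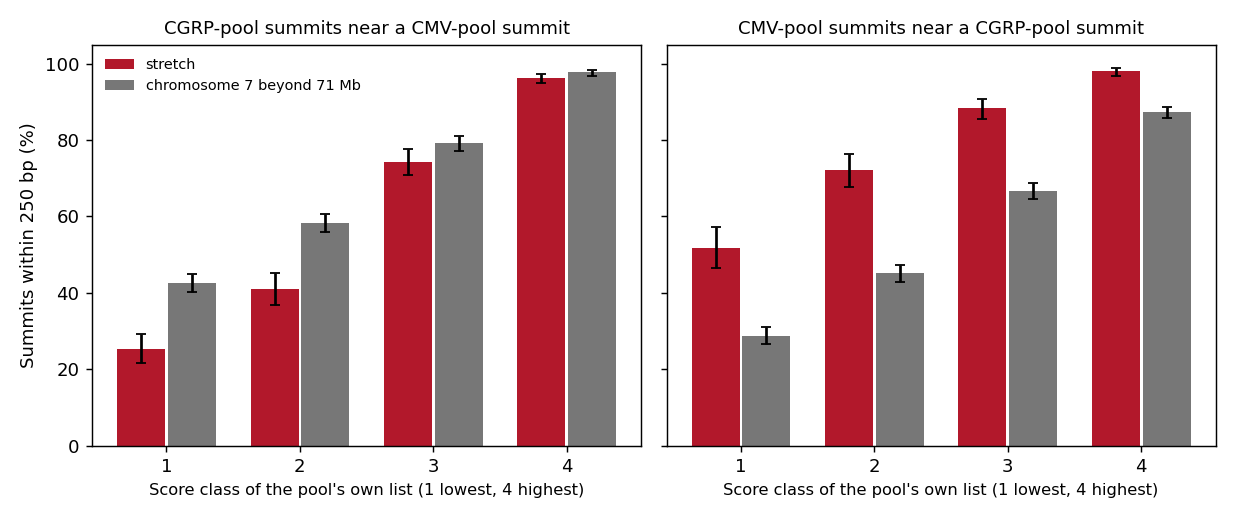
Share of summits with a summit of the other pool within 250 bp (vertical axis, %) by score class of the pool's own list (horizontal axis, 1 lowest to 4 highest), for the stretch (red) and chromosome 7 beyond 71 Mb (grey); the left panel is for CGRP-pool and the right for CMV-pool summits, and bars carry Wilson 95% intervals. On the right every red bar is higher, with 51.8% against 28.8% in class 1, and on the left every red bar is lower, with 25.2% against 42.5% in class 1 and 96.3% against 97.7% in class 4.

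The distance allowed between partners set the level but not the contrast for CMV-pool summits. At 100, 250, 500 and 1000 bp, 74.8%, 82.5%, 86.5% and 88.7% of the CMV-pool summits of the stretch had a CGRP-pool partner, against 51.3%, 59.1%, 63.1% and 66.8% beyond 71 Mb. For CGRP-pool summits near a CMV-pool summit the shares were 61.0%, 66.3%, 69.7% and 73.7% in the stretch, against 61.8%, 69.7%, 73.5% and 77.7% beyond 71 Mb. Partners lay close together. The median distance from a shared CGRP-pool summit to its CMV-pool partner was 24 bp in the stretch and 29 bp beyond 71 Mb, and from a CGRP-pool summit to its mixed-pool partner 19 bp in the stretch and 23 bp beyond. Dense windows of the stretch shared most: 85.9% of their CMV-pool summits had a CGRP-pool partner, against 59.6% in dense windows beyond 71 Mb. The rest of the stretch had 66.4%. Of CGRP-pool summits, 68.0% in dense windows of the stretch had a CMV-pool partner, against 70.1% in those beyond 71 Mb. At every distance and in dense windows, the shares between the CGRP and CMV pools are tied to the counts that chose the stretch. They are a description only.

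Joining the summits of the 3 lists at 250 bp gave 2944 sites in the stretch and 10031 beyond 71 Mb. All 3 pools had a summit at 1520 sites of the stretch (51.6%), against 42.3% beyond 71 Mb and 36.7% on the other autosomes. The CGRP and mixed pools together, without the CMV pool, had 450 sites (15.3%), against 9.38% beyond 71 Mb. The CGRP pool alone had 352 (11.96%), against 9.81%. Sites of the CMV pool without the CGRP pool had the smaller shares: the CMV pool alone had 207 (7.03%), against 19.5% beyond 71 Mb and 25.8% on the other autosomes. The CMV and mixed pools together had 116 (3.94%), against 10.9% beyond 71 Mb and 13.02% on the other autosomes. The CGRP and CMV pools without the mixed pool had 77 (2.62%), against 2.43%, and the mixed pool alone 222 (7.54%), against 5.68%. The 2 classes with a CMV-pool but no CGRP-pool summit thus had a smaller share in the stretch than beyond 71 Mb, and the classes with a CGRP-pool but no CMV-pool summit a larger one. These shares are tied to the CGRP-pool and CMV-pool counts that chose the stretch, so they are a description only.

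**Figure D5:**
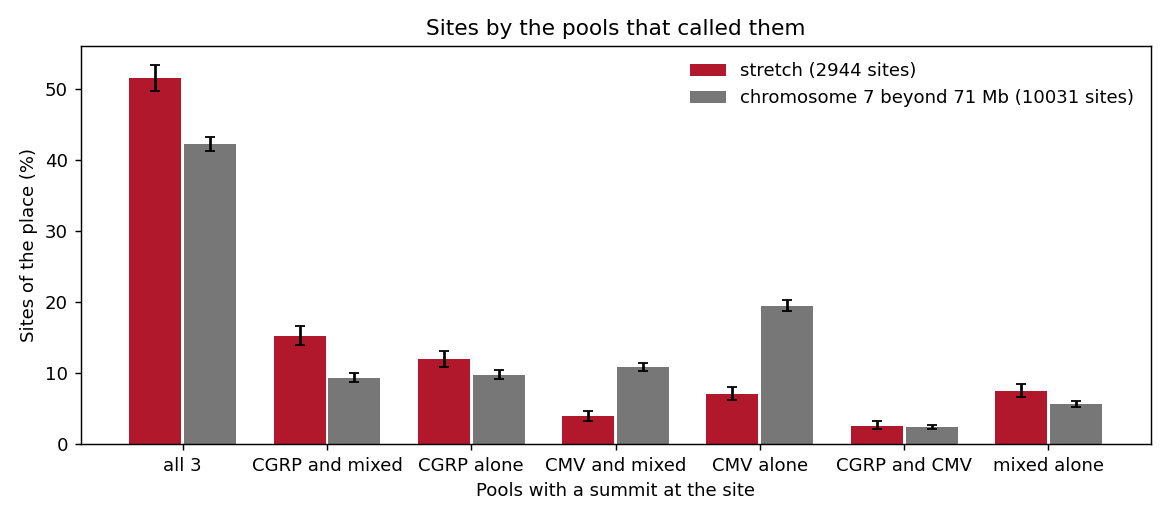
Share of sites (vertical axis, %) by the pools with a summit at the site (horizontal axis), for the 2944 sites of the stretch (red) and the 10031 sites of chromosome 7 beyond 71 Mb (grey), with Wilson 95% intervals. The red bar is the higher for sites of all 3 pools (51.6% against 42.3%) and for CGRP and mixed (15.3% against 9.38%), and the lower for the CMV pool alone (7.03% against 19.5%).

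The higher CGRP-pool scores of the stretch were found at the sites common to all pools. At these sites the median CGRP-pool score was 122.4 in the stretch, percentile 77.8 of the list, against 55.4, percentile 65.4, beyond 71 Mb. The mixed pool had a median of 67.3 there, against 38.7 beyond 71 Mb, and it was also the higher in the stretch at its other sites: 10.1 against 7.36 at CGRP and mixed sites, 8.38 against 7.87 at CMV and mixed sites, and 5.45 against 4.57 for the mixed pool alone. At the common sites the CMV pool had 22.5 in the stretch and 22.2 beyond 71 Mb. In the CGRP and CMV pools, several classes of fewer pools had medians close to each other in both places: 15.7 in the stretch and 15.1 beyond for CGRP-pool summits at CGRP and mixed sites, 5.47 and 5.34 for the CGRP pool alone, and 3.88 and 4.004 for the CMV pool alone. CMV-pool summits at CMV and mixed sites scored lower in the stretch, with a median of 6.48, against 10.5 beyond 71 Mb. Of the CMV-pool summits, 1613 of 2036 in the stretch were at sites common to all pools, against 4562 of 8062 beyond 71 Mb. For the CGRP pool these were 1586 of 2491 in the stretch, against 4432 of 6658 beyond 71 Mb.

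The strongest summits of the stretch each had a partner in both other pools. The highest of the CGRP pool was at 20301101 with a score of 2455, and it had a CMV-pool summit 15 bp away (382.7, rank 21 in the stretch) and a mixed-pool summit 16 bp away (1317, rank 2). It was followed by 4691516 with 2404, where the CMV pool had 463.0 (rank 6) and the mixed pool 1247 (rank 3). Next in the CGRP pool, 46704816 with 2342, lay 6 bp from the highest of the CMV pool, at 46704822 with 619.2. The last of its 5 highest were at 36119073 with 2279 (CMV 429.4, rank 11, and mixed 1149, rank 6) and at 13563519 with 2161 (CMV 402.9, rank 17, and mixed 1115, rank 7). The next highest of the CMV pool was at 48648843 with 550.9, which was rank 44 in the CGRP pool (1374) and rank 34 in the mixed pool (788.8). It was followed by 46773217 with 534.8, 52185180 with 473.5 and 48888427 with 467.1, of CGRP-pool ranks 7, 13 and 29. The highest of the mixed pool was at 46773218 with 1362, then 20301085 with 1317, 4691505 with 1247, 46807982 with 1227 and 46704808 with 1167. All 15 had a summit of both other pools within 51 bp, and they lay at 10 distinct sites. Of these sites 3 lay at 46 to 47 Mb, just beyond the longest gap, in a window that had 45 CGRP-pool, 34 CMV-pool and 32 mixed-pool summits. Sharing within 250 bp was also common over the genome in the highest score class. Of its CGRP-pool summits 97.2% had a CMV-pool and 99.4% a mixed-pool summit. For CMV-pool summits these shares were 83.9% (CGRP) and 97.2% (mixed), and for mixed-pool summits 95.4% (CGRP) and 97.8% (CMV). The partners of the 15 summits are thus not read as a trait of the stretch.

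Sites called by the CGRP or the CMV pool alone had low median scores (5.47 and 3.88), and their strongest members lay beside a site of the other pools. The 3 highest summits of the CGRP pool alone were at 6123352 (129.0), 31337005 (127.4) and 19930255 (102.6), with the nearest CMV-pool summit 618, 422 and 483 bp away. The 3 highest of the CMV pool alone were at 6315595 (236.5), 31758434 (86.3) and 28376586 (69.1), with the nearest CGRP-pool summit 280, 268 and 315 bp away. All 6 were thus within 1000 bp of a summit of the other pool and were unshared by the distance set. In the CGRP pool, the 3 highest summits of CGRP and mixed sites scored above the 3 of the CGRP pool alone. The highest was at 16872027, with a CGRP-pool score of 456.6 and a mixed-pool score of 206.7, but a CMV-pool summit 361 bp away. The second, at 28037119, had 438.8 in the CGRP pool and 237.6 in the mixed pool, and its nearest CMV-pool summit was 5188 bp away. The next, at 52103999, had 432.8 and 165.1, with a CMV-pool summit 436 bp away. The counterparts of the CMV and mixed pools were at 52071675 (CMV 59.2 and mixed 92.7), 38804102 (53.9 and 131.6) and 31064948 (52.8 and 87.3), each with a CGRP-pool summit 393 to 536 bp away. In the CMV pool the order was the reverse, these 3 scoring lower than the 3 of the CMV pool alone. Of those, the summit at 6315595 stood at percentile 97.0 of its list. The site at 28037119 was the one of these 12 without a summit of the absent pool within 1000 bp; these last 6 sites and this remark were chosen after the values were seen.

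Spacing and peak shape differed little from the rest of the chromosome. The median distance from a summit to the next of its list was 5211 bp in the stretch and 6065 bp beyond 71 Mb for the CGRP pool, and 5885 and 5679 bp for the CMV pool. The mixed pool had 5190 bp in the stretch and 5668.5 bp beyond 71 Mb. The median was thus shorter in the stretch for the CGRP and mixed pools, although both had fewer summits per Mb there. It was taken over all neighbouring summits, and spacing within blocks was not computed. Peaks with several summits made up 15.7% of the CGRP-pool peaks of the stretch, against 14.9% beyond 71 Mb. They made up 18.5% of the CMV-pool peaks, against 17.4%, and 16.2% of the mixed-pool peaks, against 14.5%. The number of summits per peak was 1.195 in the stretch and 1.177 beyond for the CGRP pool, and 1.22 in both places for the CMV pool.

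Set among the other stretches without a merged peak, this one was long and stood high in the order without being extreme. Over the genome 60 stretches without a merged peak, chromosome ends included, had at least 50 summits of each pool. Of these 19 had more CGRP-pool than CMV-pool summits, and the median ratio was 0.839 (range 0.223 to 1.50). Of the 7 over 20 Mb, this one was the only one with more CGRP-pool summits. Taken from the merged peak on one side to that on the other, it had rank 2 in length (50.4 Mb), rank 5 in the ratio, rank 5 in the share of CMV-pool summits near a CGRP-pool summit, rank 3 in the median CGRP-pool score and rank 7 in the median CMV-pool score. On chromosome 4, the stretch from 97989381 to 148000816 was of nearly equal length (50.01 Mb), with a ratio of 0.844, 61.7% of its CMV-pool summits near a CGRP-pool summit, and medians of 19.2 in the CGRP pool and 9.96 in the CMV pool. On chromosome 19, the stretch from 21994095 to 61341645 had a ratio of 0.895, a share of 62.7%, and medians of 26.9 and 12.1. The next stretch of chromosome 7, from 55394114 to 70229262, had 637 CGRP-pool and 638 CMV-pool summits and a share of 64.6%. These 3 were below the proximal stretch in the ratio, the share and both medians. Shorter stretches lay close to it or above it in the ratio and the share: on chromosome 17, that from 33980455 to 38132574 had a ratio of 1.25, a share of 86.96% and medians of 44.7 in the CGRP pool and 15.3 in the CMV pool. On chromosome 4, that from 151809400 to 155629729 had the highest ratio, 1.50, and a share of 84.9%. Its medians of 24.8 and 12.6 were both below those of the proximal stretch. These stretches for comparison were chosen after their values were seen. The surplus of CGRP-pool summits chose the proximal stretch, and the share is tied to the same counts. The ranks of the proximal stretch in the ratio and the share, and its place among the 7 over 20 Mb, are a description only.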

How the data were processed

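Per the labels, the authors called summits on merged libraries, giving 1 list for each of 3 pools. The deposited summit score was taken for a −log10 q-value because no list has a score below 1.30, which corresponds to a q-value of 0.05, and it is compared within a list only. The mean normalised count is a signal in the authors' deposited tables. The submitters' processing notes name Bowtie2, MACS2, DESeq2 and, as build, mm9, with no roles or versions. Trimming, duplicate removal, a shift of reads for the Tn5 cut, and the filter behind the merged list were not given in the sources used here. Read depth is unknown, and list length may follow depth and enrichment. Peak numbers ran without a gap in every list (highest 146942 in the CGRP, 207341 in the CMV and 175036 in the mixed pool).

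Summits per Mb carry exact Poisson and shares Wilson 95% intervals. Sites joined summits of the 3 lists by single linkage at 250 bp. Named sites were the 5 highest summits of each pool, the 3 highest of the CGRP and of the CMV pool alone, and the 5 windows with the most and the fewest summits and the highest and lowest ratios. Members, limits and lists were chosen with earlier results of these data known. Coordinates are 1-based. The annotation at hand is of another build (GRCm38), so genes and sequences of the summits were not analysed here. Alternatives covered list length, score, distance, window size, trimmed ends, the densest windows and the place of comparison. The code was tested on simulated data. It used scipy 1.17.1, pandas 2.3.3, numpy 2.4.6 and matplotlib 3.10.9 under Python 3.11.15.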

Additional observations from a re-analysis of the deposited data

How the results depend on the processing

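Of 88 alternatives to 15 results, 52 changed the value by less than its counting interval, 34 moved it further and 2 turned its direction. With the top 100000 summits of each pool, the CGRP to CMV ratio of the stretch was 1.58, and with a score of at least 5 it was 1.38 (1.22 as reported). Lists of equal length set the genome's ratio to 1 by construction, against 0.686 for the whole lists, so 1.58 is not a larger surplus relative to the genome. The lower quartile of the score was 3.94 in the CMV-pool list and 7.47 in the CGRP-pool list. A limit of 5 thus left out a larger part of the CMV-pool list. The genome's ratio at this limit was not computed, so 1.38 is not read as a larger surplus. Density in the stretch over that beyond 71 Mb, 0.606 as reported for the CGRP pool, was 0.697 with the top 100000, 0.543 with 5 Mb trimmed from each end, 0.473 without the 5 densest windows, 0.709 against the other autosomes and 0.703 without empty windows. For the CMV pool (0.409) it was 0.492 with the top 100000, 0.452 with a score of at least 5, 0.372 trimmed, 0.332 without the densest and 0.475 without empty windows. For the mixed pool (0.545) it was 0.687, 0.576, 0.490, 0.428 and 0.632 in the same order. The share of CGRP-pool summits near a CMV-pool summit differed between places by −3.40 points as reported, by −0.841 within 100 bp and by −10.2 as a mean over the 4 score classes. For CMV-pool summits near a CGRP-pool summit the difference (23.4) was 33.2 against the other autosomes and 20.7 over the score classes. For CGRP-pool summits near the mixed pool it turned from 1.43 points (−0.392 to 3.19), which did not exceed its counting error, to −0.126 against the other autosomes and −3.23 over the score classes. The CMV-pool median score over that beyond 71 Mb (1.47) was 1.73 against the other autosomes and 1.33 trimmed. Windows with more CGRP-pool summits made up 100% with the top 100000 (29 of 29 windows, against 81.6% of 38 as reported). Lists of equal length leave out more CMV-pool than CGRP-pool summits. The share over all chromosomes was counted for the whole lists only (30.0%), so nothing is read from the 100%. The cause of these shifts was not tested. Of 32 alternatives to the other shares, 20 stayed within the counting interval. The empty windows and score classes were added after the data were seen. Leaving out a library was not possible, since the lists are merged. No paired analysis was possible because each pool is 1 merged list. Depth is unknown, so a site missing from a list may be below its threshold.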

Other observations

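The end of the stretch lay close to a whole even Mb: the first merged peak after it was 0.0260 Mb past 54 Mb. At its start the last merged peak was 0.344 Mb before 4 Mb, and only 3 CGRP-pool, 0 CMV-pool and 3 mixed-pool summits lay between the start and 4 Mb. Other stretches without a merged peak had edges of this kind. Of the 120 edges of the 60 stretches, 72 lay within 0.1 Mb outside a multiple of 2 Mb, and in 25 stretches both edges did. With the genome divided into blocks of 2 Mb that start at even Mb, 269 of 1260 blocks with at least 50 summits held no merged peak and 9 held 1 to 10. With blocks that start at odd Mb, 224 of 1263 held none and 25 held 1 to 10. This was seen in the edges after the values were known, it has no test, and its cause was not tested. Peaks absent from the merged list analysed here may have been removed by a filter, or may be missing from it for another reason, and these cannot be told apart.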
